A study of Mus musculus with 8 samples.

Results

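The regions described here are the restriction fragments of mouse chromosome 3 that lie 201 to 1201 kb downstream (toward higher coordinates) of the promoter of Sox2 and were read as its contacts. They were chosen by position, as fragments with a midpoint at chr3:34850001-35850000 (mm10), an interval that ends inside Atp11b. The Sox2 libraries listed 2102 distinct fragments there, of 84255 listed from the Sox2 viewpoint and 420163 over the 5 viewpoints of the series. Within the interval, a pair of 20 kb stretches was set apart because of its read shares in these same libraries: stretch 1 at chr3:35470001-35490000, 821 to 841 kb from the centre of the viewpoint, and stretch 2 at chr3:35565001-35585000, 916 to 936 kb from it. Values of the stretches are therefore descriptions without a test.

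The study mapped chromatin contacts of chosen viewpoints in 8 libraries of mouse genomic DNA, 2 from each of 4 kinds of cell, by crosslinking, ligation and sequencing of the fragments joined to a viewpoint. N2a is an established neuroblastoma line, here grown in DMEM with serum. The neurons were cortical neurons differentiated from neuronal stem cells of embryonic day 14.5 and plated in Neurobasal medium with B27. The NSC libraries came from neuronal stem cells of embryonic day 14.5 cortex, grown with bFGF and EGF, and the ES libraries from embryonic stem cells grown on gelatin in serum with leukemia inhibitory factor. The growth medium is labelled for 1 of the 2 neuron libraries and 1 of the 2 NSC libraries. No genotype, strain or treatment is labelled, and no group is marked as an untreated control.

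Sox2 encodes a transcription factor of pluripotent and neural stem cells. Promoters meet distant enhancers when the chromatin between them folds, and such contacts are largely held within domains bounded by sites of the insulator protein CTCF. In embryonic stem cells the known distal control region of Sox2 lies downstream of the gene, nearer to it than the interval described here. Atp11b, at the far end, encodes a phospholipid flippase of the P4-ATPase family.

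The interval was poor in coding genes. RefSeq annotates 11 genes that reach into it: 6 long noncoding RNA genes, 2 pseudogenes, 1 miRNA gene, 1 snRNA gene and 1 protein-coding gene, Atp11b. No annotated gene overlapped stretch 1 or stretch 2. The promoters below (RefSeq, GRCm38.p6, the assembly of mm10; 250 bases before to 50 after a gene's start) are those on which values below turn: Gm35425 and the inner start of Gm38512 lie in windows called lower in N2a than in NSC cells, the first of them a call that ended in 7 of 13 other settings, and Atp11b gives the interval its far end. Capitals mark CG dinucleotides in the Gm35425 promoter (chr3:35318187-35318486, plus strand), the inner Gm38512 promoter (chr3:35343117-35343416, minus strand) and the Atp11b promoter (chr3:35753813-35754112, plus strand).
Gm35425 promoter: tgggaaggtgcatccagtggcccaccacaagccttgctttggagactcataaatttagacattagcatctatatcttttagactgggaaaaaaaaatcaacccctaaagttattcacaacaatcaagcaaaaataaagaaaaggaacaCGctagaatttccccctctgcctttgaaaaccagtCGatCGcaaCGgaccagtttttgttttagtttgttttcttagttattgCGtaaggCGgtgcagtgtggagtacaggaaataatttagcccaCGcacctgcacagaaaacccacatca
Gm38512 inner promoter: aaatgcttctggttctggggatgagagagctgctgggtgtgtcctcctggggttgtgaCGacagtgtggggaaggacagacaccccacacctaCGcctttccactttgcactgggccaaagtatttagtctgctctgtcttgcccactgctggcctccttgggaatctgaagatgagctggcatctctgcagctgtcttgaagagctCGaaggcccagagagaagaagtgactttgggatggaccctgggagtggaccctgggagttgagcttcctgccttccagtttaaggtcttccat
Atp11b promoter: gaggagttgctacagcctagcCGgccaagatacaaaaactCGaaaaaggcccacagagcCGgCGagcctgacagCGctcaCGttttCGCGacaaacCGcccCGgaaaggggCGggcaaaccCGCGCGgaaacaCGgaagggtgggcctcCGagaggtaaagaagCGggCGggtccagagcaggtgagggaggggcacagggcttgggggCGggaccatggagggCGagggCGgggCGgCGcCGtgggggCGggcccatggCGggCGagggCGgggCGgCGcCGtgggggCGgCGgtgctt
The Atp11b promoter held 33 CG dinucleotides, and 91.4% of 32851 mouse promoters of the same length held fewer. The Gm35425 promoter held 7, equal to their median, and the inner Gm38512 promoter held 3. Fragments overlapping the Gm35425 promoter held 1 and 2 reads in N2a, 13 and 18 in neuron, 4 and 19 in NSC, and 28 and 16 in ES libraries. Those overlapping the inner Gm38512 promoter held 0 and 0 reads in N2a, 7 and 12 in neuron, 6 and 18 in NSC, and 27 and 9 in ES libraries. Both noncoding promoters printed here were picked from windows called lower in N2a, so their few N2a reads are a description. The counts are not scaled to library depth. The outer Gm38512 promoter (chr3:35405901-35406200) went the other way. It held 8 and 13 reads in N2a, 3 and 7 in neuron, 3 and 6 in NSC, and 4 and 3 in ES libraries.

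The Sox2 libraries held 41081 and 53788 listed reads in N2a cells, 68750 and 47505 in neurons, 18150 and 74005 in NSC cells, and 137331 and 61097 in ES cells. All shares are percentages of a library's cis reads, the chromosome 3 reads more than 5 kb from the viewpoint centre at 34648817. These numbered 22155 and 35306 in N2a, 37789 and 28693 in neuron, 9634 and 46512 in NSC, and 75244 and 36911 in ES libraries. NSC replicate 1 was thus the shallowest library and ES replicate 1 the deepest. Fragments of the interval had a median width of 287 bases, 230 of them were listed in all 8 libraries, and 190 in 1 library.

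Over the whole interval, Sox2 contacts were fewest in N2a cells. The interval took 12.9% and 14.9% of cis reads in N2a cells, 26.8% and 29.8% in neurons, 29.2% and 32.4% in NSC cells, and 26.6% and 27.0% in ES cells. Both N2a libraries lay below all 6 others, while neuron, NSC and ES libraries lay within a narrow span and the neuron libraries overlapped those of NSC and ES cells. The means were 13.9 ± 1.46% in N2a, 28.3 ± 2.12% in neurons, 30.8 ± 2.305% in NSC and 26.8 ± 0.285% in ES cells (SD, n = 2 each). The 95% Wilson interval of the shallowest library, NSC replicate 1, ran from 28.3% to 30.1%. Such intervals cover counting error only: without molecular identifiers, a read cannot be taken for 1 independent molecule.

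Because the stretches were picked on these shares, the test that bears on the interval leaves them out. Without them the shares were 11.9% and 14.2% in N2a, 23.3% and 26.4% in neuron, 23.0% and 27.7% in NSC, and 25.5% and 24.8% in ES libraries. N2a again lay below the others, but the difference over the 4 cell types did not pass an exact permutation test of F on log2 shares (p = 0.143, one-sided in F over all distinct groupings, which allow no p below 0.00952). With the stretches in, the same exact test gave p = 0.0476, a value that draws on the readout used to pick them. That p rose above 0.05 when neuron replicate 2 (p = 0.0571), NSC replicate 2 (p = 0.0762), ES replicate 1 (p = 0.0857) or ES replicate 2 (p = 0.0762) was left out of the permutation test. It did so too with all listed reads as denominator (p = 0.0952, exact) and with each listed fragment counted a single time (p = 0.114, exact). Nothing in the labels tells whether a pair of replicates came from separate cultures, and each p here is a measure of the spread between these libraries only.

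The lower N2a share stood beside a larger share of far reads. Reads on chromosome 3 beyond 1.2 Mb made up 51.2% and 45.1% of cis reads in N2a cells, 26.7% and 22.9% in neurons, 28.4% and 21.7% in NSC cells, and 30.1% and 29.3% in ES cells. Nearer than 201 kb, N2a did not stand apart: 27.8% and 30.2% in N2a, 27.0% and 28.3% in neurons, 24.2% and 27.4% in NSC, and 33.4% and 33.5% in ES cells. Counted only against reads within 1.2 Mb, the interval held 26.4% and 27.2% in N2a, 36.6% and 38.7% in neurons, 40.8% and 41.5% in NSC, and 38.1% and 38.2% in ES cells. The N2a libraries were lowest on this scale too.

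**Figure D1:**
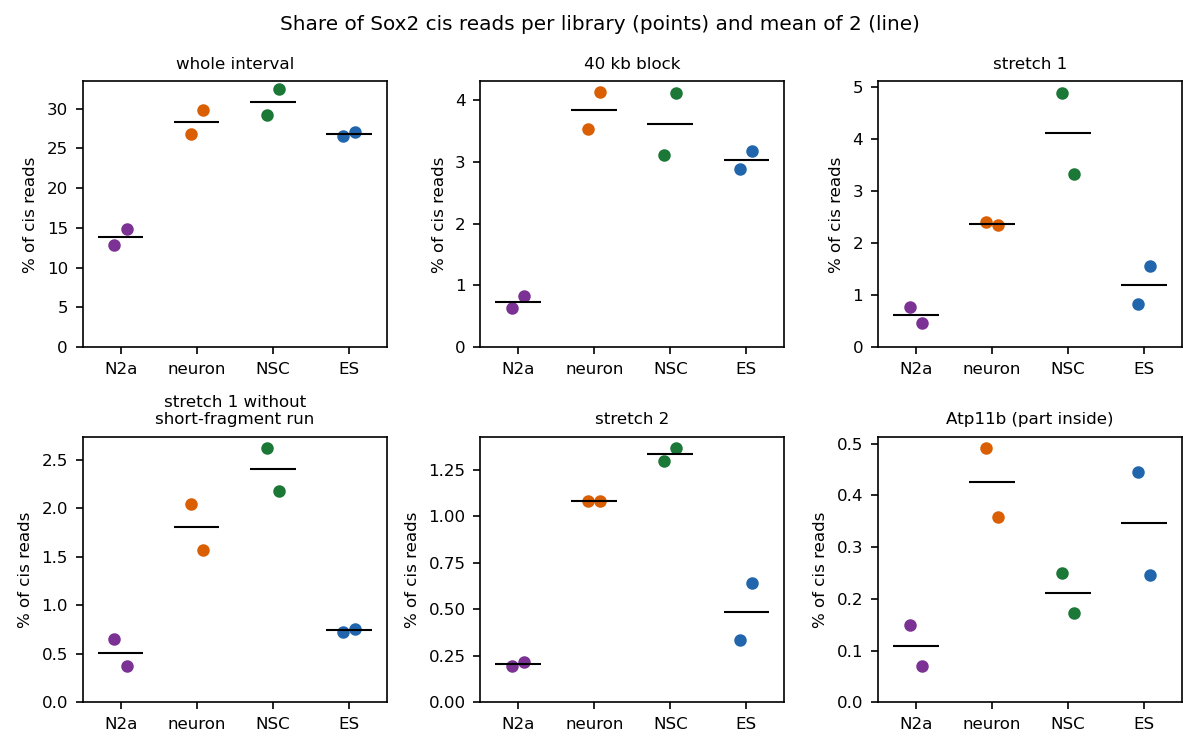
Share of Sox2 cis reads in percent (y axis) per library (points) and mean of the 2 libraries (line) in N2a, neuron, NSC and ES cells, for the whole interval, the 40 kb block at 35080001 to 35120000, stretch 1, stretch 1 without its short-fragment run, stretch 2, and the Atp11b stretch inside the interval. N2a libraries, at 12.9% and 14.9% of cis reads, lie below the others over the whole interval, and NSC libraries lie highest in both stretches.

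Set against the mirror interval upstream, at the same distances on the other side of Sox2 (chr3:33447634-34447633), ES cells stood apart. The downstream interval held 1.58 and 1.53 times the reads of the mirror interval in N2a libraries, 1.38 and 1.57 times in neuron, 1.61 and 1.76 times in NSC, and 2.69 and 2.68 times in ES libraries. Both ES libraries lay above the other 6, which overlapped. The mirror interval itself held 8.95 ± 1.12% of cis reads in N2a, 19.2 ± 0.294% in neurons, 18.3 ± 0.157% in NSC and 10.0 ± 0.128% in ES cells (SD, n = 2 each). The next megabase downstream (35850001 to 36850000) held only 2.09%, 1.79%, 2.03% and 2.36% on average in N2a, neuron, NSC and ES cells.

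Without the stretches the ratio was 1.46 and 1.46 in N2a, 1.203 and 1.39 in neurons, 1.27 and 1.51 in NSC, and 2.57 and 2.46 in ES libraries, again highest in both ES libraries. The difference over cell types did not pass the exact permutation test of F (p = 0.0762, one-sided in F). With the stretches in, p was 0.0381 by the same exact test, and it rose above 0.05 without N2a replicate 1 (p = 0.0857), N2a replicate 2 (p = 0.0667), neuron replicate 1 (p = 0.0571) or NSC replicate 2 (p = 0.0762). Counting each listed fragment a single time, whatever its reads, gave ratios of 1.52 and 1.34 in N2a, 1.34 and 1.61 in neurons, 1.35 and 1.49 in NSC, and 1.56 and 1.62 in ES cells (exact permutation test, p = 0.533). On that scale the ES libraries no longer stood apart.

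Reads were spread unevenly along the interval. Per 100 kb, the band from 35050001 to 35150000 held 1.59% and 2.10% of cis reads in N2a, 5.72% and 6.5% in neurons, 4.91% and 6.61% in NSC, and 5.41% and 5.82% in ES cells. It was the largest of the 10 bands in both neuron libraries, both ES libraries and NSC replicate 2. The band from 35450001 to 35550000, which contains stretch 1, held 2.55% and 1.46% in N2a, 5.36% and 5.46% in neurons, 8.14% and 6.01% in NSC, and 2.85% and 3.57% in ES cells. It was the largest band in NSC replicate 1, the shallowest library, and in N2a replicate 1. N2a replicate 2 had its largest band at the near end, and no N2a band held more than 3.04%.

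The near end, 34850001 to 34950000, held most in ES cells. Its shares were 1.45% and 3.04% in N2a, 1.84% and 2.10% in neurons, 2.71% and 2.52% in NSC, and 4.28% and 3.92% in ES cells. Both ES libraries exceeded the other 6, and the N2a libraries differed from each other more than those of any other cell type in this band. Past stretch 2, the last 265 kb of the interval held 0.685% in N2a, 1.53% in neurons, 1.21% in NSC and 1.58% in ES cells on average. Contacts in all 4 cell types thus dropped away before Atp11b was reached.

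**Figure D2:**
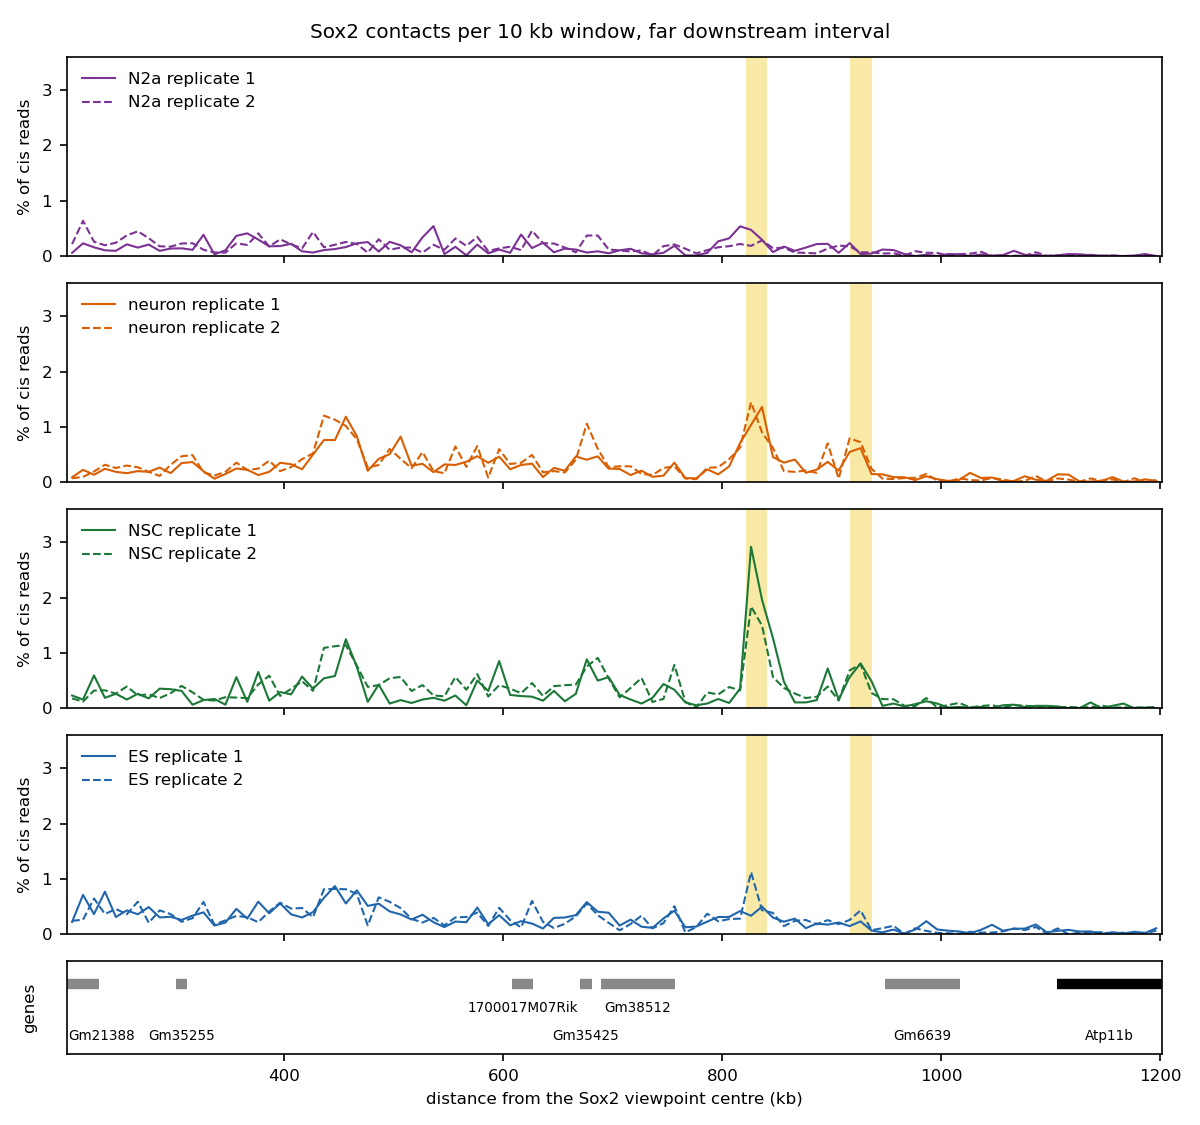
Share of Sox2 cis reads in percent per 10 kb window (y axis) against distance from the viewpoint centre in kb (x axis), for N2a, neuron, NSC and ES libraries (solid line, replicate 1; dashed line, replicate 2), with stretches 1 and 2 shaded and annotated genes below (Atp11b in black, others in grey). Neuron and NSC libraries peak in stretch 1 and near 450 kb, ES replicate 2 also peaks in stretch 1, and all lines run close to 0 past 1000 kb.

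Stretch 1 held the strongest 5 kb window of the interval in both neuron and both NSC libraries and in ES replicate 2. It held 170 and 165 reads in N2a, 905 and 672 in neuron, 470 and 1550 in NSC, and 626 and 574 in ES libraries. As shares of cis reads these were 0.767% and 0.467% in N2a, 2.39% and 2.34% in neurons, 4.88% and 3.33% in NSC, and 0.832% and 1.56% in ES cells. The groups did not overlap, although ES replicate 1 came close to N2a replicate 1, and both NSC libraries lay above all others. The means of 0.617 ± 0.212% in N2a, 2.37 ± 0.0374% in neurons, 4.11 ± 1.09% in NSC and 1.19 ± 0.511% in ES cells (SD, n = 2 each) put NSC at 3.44 times ES, neurons at 1.98 times ES and 0.577 times NSC, and N2a at 0.150 times NSC.

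By reads, stretch 1 stood above the mean of its flanks in every library, least in N2a cells and ES replicate 1. In N2a replicate 1 the lower flank alone held more than stretch 1, 0.858% against 0.767%. Per 20 kb, the share of stretch 1 over the mean of both 20 kb flanks was 1.39 and 1.35 in N2a, 2.67 and 2.53 in neurons, 4.45 and 4.08 in NSC, and 1.32 and 2.86 in ES libraries. The lower flank, just outside, held 0.627% in N2a, 1.01% in neurons, 0.575% in NSC and 0.643% in ES cells, and the upper flank 0.269% in N2a, 0.810% in neurons, 1.34% in NSC and 0.529% in ES cells. The ES replicates thus disagreed in stretch 1 while their upper flanks held similar shares. Counting each listed fragment a single time, stretch 1 held 1.68 and 1.03 times its flanks in N2a, 0.944 and 0.895 times in neurons, 1.44 and 0.829 times in NSC, and 0.840 and 1.00 times in ES libraries. Each library listed 31 to 34 of the 34 fragments of stretch 1, so this count cannot show whether stretch 1 stood out by reads. With the fewest reads that could give the counts, were a read to cover adjoining fragments, it held 0.762 and 1.16 times in N2a and 1.09 to 3.405 times in the other libraries.

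A run of 7 adjoining short fragments inside stretch 1 took a large part of its reads. It spanned 330 bases (35479474 to 35479803), and 6 of the 7 fragments were exactly 40 bases wide and the other 78 bases. No other run of adjoining fragments under 100 bases in the interval had more than 4 members. The run held 26 and 32 reads in N2a, 134 and 222 in neuron, 217 and 537 in NSC, and 77 and 293 in ES libraries. This was 15.3% and 19.4% of the stretch's reads in N2a, 14.8% and 33.0% in neurons, 46.2% and 34.6% in NSC, and 12.3% and 51.0% in ES cells, so that its part was largest in ES replicate 2 and NSC replicate 1.

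Without the run, an exclusion chosen after its values were seen, stretch 1 held 0.650% and 0.377% in N2a, 2.04% and 1.57% in neurons, 2.63% and 2.18% in NSC, and 0.730% and 0.761% in ES cells. The ES libraries then differed little, both NSC libraries remained the highest, and N2a and ES libraries overlapped neither neurons nor NSC. NSC cells stood at 3.22 times ES, neurons at 2.42 times ES, and N2a at 0.214 times NSC. The run held 0 reads of the other 4 viewpoints, out of 2038975 reads in all, which allows a share of up to 0.000147%. Those viewpoints held 422 reads in the whole interval, so few that 0 in a run of 330 bases says little about the run. Of the same 4 viewpoints' reads, 0 lay in stretch 1 and 9 in stretch 2. Whether sequence repetition or fragment size moved the reads of the run was not tested.

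**Figure D3:**
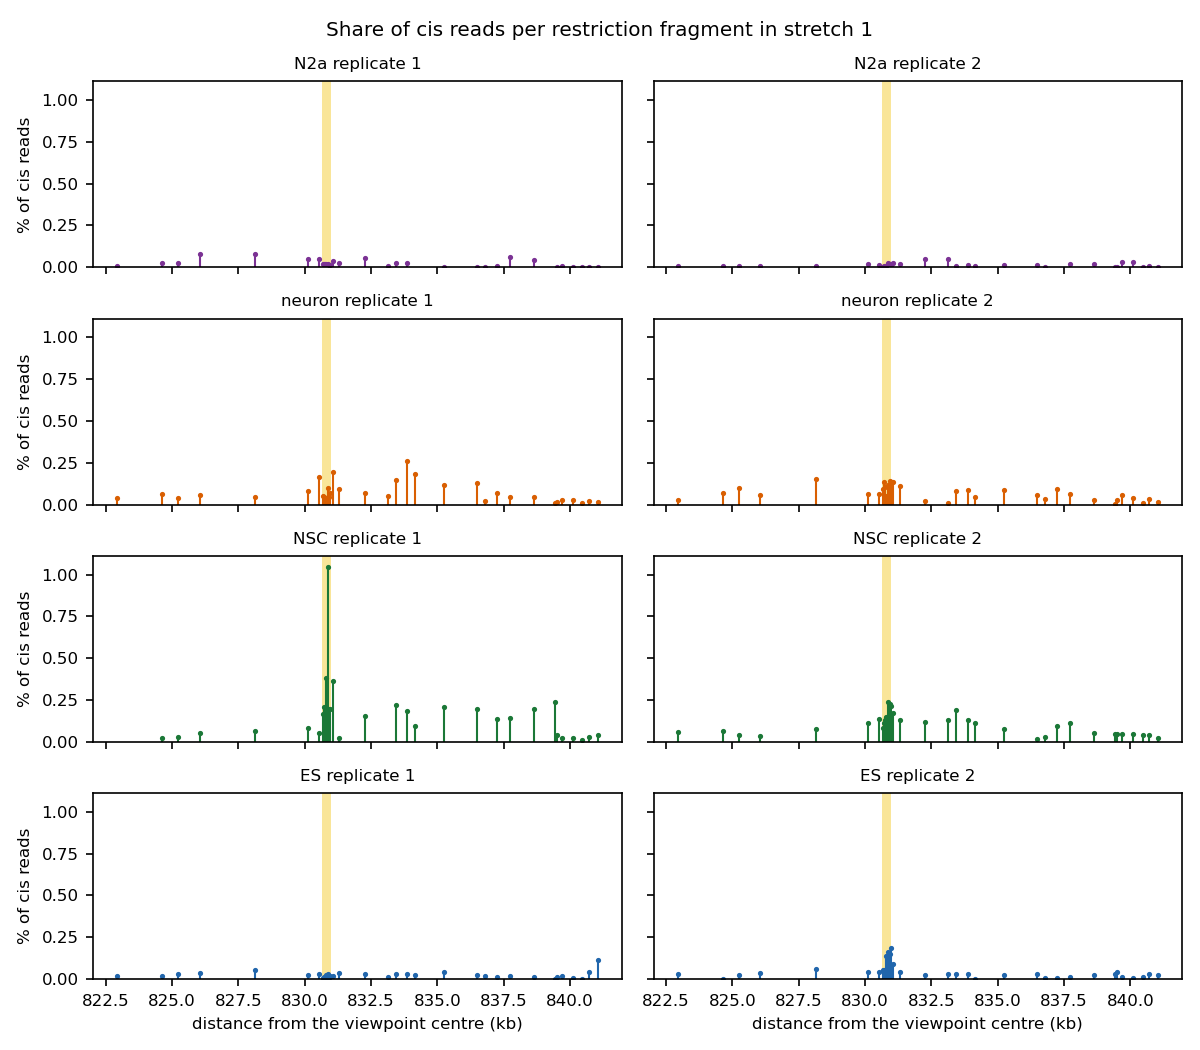
Share of cis reads in percent (y axis) of each restriction fragment in stretch 1 by its distance from the viewpoint centre in kb (x axis), in each of the N2a, neuron, NSC and ES libraries, with the run of 7 short fragments shaded. The tallest fragment, 78 bases wide, holds 1.05% of cis reads in NSC replicate 1, and no fragment of the N2a libraries reaches 0.1%.

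Of the 34 fragments listed in stretch 1, 28 were listed in all 8 libraries. The highest mean share belonged to the 78-base fragment of the run, 35479642 to 35479719, with 4 and 9 reads in N2a, 38 and 33 in neuron, 101 and 112 in NSC, and 21 and 59 in ES libraries. NSC replicate 1, at 1.05% of cis reads, was far above NSC replicate 2 at 0.241%, while the N2a and neuron replicates were close to each other. The next by mean share was the 150-base fragment just after the run, 35479806 to 35479955, with 8 and 10 reads in N2a, 73 and 39 in neuron, 35 and 79 in NSC, and 14 and 33 in ES libraries. Behind it came the last fragment of the run, 35479764 to 35479803, with 3 and 7 reads in N2a, 25 and 39 in neuron, 19 and 100 in NSC, and 12 and 68 in ES libraries.

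Stretch 2 followed the same order of cell types at lower shares. It held 43 and 76 reads in N2a, 410 and 310 in neuron, 125 and 637 in NSC, and 252 and 236 in ES libraries. Its shares were 0.194% and 0.215% in N2a, 1.08% in each neuron library, 1.30% and 1.37% in NSC, and 0.335% and 0.639% in ES cells. No groups overlapped, and the ES libraries had the largest SD. The means were 0.205 ± 0.0150% in N2a, 1.08 ± 0.00323% in neurons, 1.33 ± 0.0509% in NSC and 0.487 ± 0.215% in ES cells (SD, n = 2 each), which put NSC at 2.74 times ES, neurons at 2.22 times ES and 0.812 times NSC, and N2a at 0.153 times NSC.

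Over its 20 kb flanks, stretch 2 held 0.878 and 1.04 times their mean in N2a, 2.38 and 1.59 times in neurons, 2.40 and 2.63 times in NSC, and 1.28 and 1.76 times in ES libraries. In N2a cells it therefore did not stand out from its flanks. Just outside, the lower flank held 0.301% in N2a, 0.844% in neurons, 0.795% in NSC and 0.418% in ES cells, and the upper flank 0.127% in N2a, 0.290% in neurons, 0.265% in NSC and 0.207% in ES cells. Reads in stretch 2 were spread over 47 fragments, of which 10 were listed in all libraries. Its leading fragment, 35575131 to 35575389, held 0 and 1 reads in N2a, 17 and 8 in neuron, 21 and 20 in NSC, and 9 and 1 in ES libraries. The next, 35570977 to 35571979 (1003 bases) and 35575457 to 35576719 (1263 bases), held at most 27 and 33 reads in any library, both maxima in NSC replicate 2.

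The authors' deposited q values for single fragments varied in number from library to library. Under a q of 0.05 there were 6 and 6 fragments of the interval in N2a, 11 and 2 in neuron, 5 and 10 in NSC, and 19 and 15 in ES libraries. This was 0.702% and 0.536% of the interval's listed fragments in N2a, 0.795% and 0.149% in neurons, 0.691% and 0.612% in NSC, and 1.11% and 1.02% in ES libraries. Of all listed chromosome 3 fragments, 1.57% and 0.696% were under that q in N2a, 0.625% and 0.662% in neurons, 0.480% and 0.474% in NSC, and 0.698% and 0.897% in ES libraries. The interval's share was below that background in both N2a libraries and neuron replicate 2 and above it in the other 5. In stretch 1 these numbered 0 and 0 in N2a, 5 and 2 in neuron, 3 and 7 in NSC, and 1 and 5 in ES libraries. In stretch 2 neuron replicate 1 had 1, and the other 7 libraries had 0. Of 59 fragments marked in any library, 11 lay in stretch 1, which held 34 of the 2102 fragments of the interval. Of the same 59, 10 were marked in 2 or more libraries, and 7 of these 10 lay in stretch 1, 4 of them in the short-fragment run. Stretch 1 was picked on read shares of these libraries, so its part of the marked fragments is a description only. Both replicates of a cell type marked the same fragment 3 times in NSC, 2 times in ES, and 0 times in N2a and in neurons. The matching counts over all of chromosome 3 are not given here, so these too are a description only.

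Outside the stretches, the interval was compared in 10 kb windows. Reads per window were fitted with edgeR's quasi-likelihood test over all windows within 1.2 Mb, 226 of which were tested, with Benjamini-Hochberg adjustment over them. The 4 contrasts between cell types share libraries. The interval had 100 windows, of which 5 touched a stretch, and all 95 others were tested. Over all 4 cell types, 12 of these 95 windows (12.6%) passed an adjusted p of 0.05, against 21.7% of all tested windows, so the interval outside the stretches held a smaller share of calls than the background.

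No window of the interval outside the stretches passed for NSC against ES, where 5.75% of all tested windows passed, for neuron against ES, where 5.75% passed, or for neuron against NSC, where 0% passed. At an unadjusted p of 0.05, edgeR called 4 windows of the interval for NSC against ES, 6 for neuron against ES and 2 for neuron against NSC, while over all tested windows 16.8%, 20.4% and 2.65% passed in these contrasts. DESeq2 called 9, 8 and 4 windows of the interval unadjusted, against 19.0%, 21.7% and 3.98% of all tested windows. After adjustment DESeq2 called 0 in each, against 8.85%, 7.52% and 0%. The median log2 change over the 95 windows was -0.12 for NSC over ES, against 0.07 over all tested windows, -0.21 for neuron over ES against 0.10, and -0.04 for neuron over NSC against 0.09. The coefficient of variation between replicates was 49.15% in this fit, and a tested window held a median of 86.4 reads per library, which limits the size of difference that can be seen in 1 window.

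In N2a against NSC cells, 13 windows of the interval passed the edgeR test (13.7%), all of them lower in N2a, against 19.0% of all tested windows in either direction and 17.3% lower. The median log2 change was -0.92 over the 95 windows, against -0.75 over all tested windows, which include them. In 10 of the 13 windows both N2a libraries lay below all 6 other libraries. The same held in 22 of all 100 windows of the interval, those touching the stretches included. No such count was made over all tested windows, where the median was also lower in N2a. Neither count therefore sets the interval apart from its surroundings. Because the 13 were called as lower in N2a than in NSC, low N2a ranks among them were largely set by that choice. Of the 12 windows called over all cell types, 11 were among these 13. The other was 34860001 to 34870000 (edgeR adjusted p = 0.0220), where N2a was not low: it held 0.230% and 0.637% in N2a, 0.222% and 0.0941% in neurons, 0.156% and 0.118% in NSC, and 0.711% and 0.263% in ES cells. Its call ended without neuron replicate 2, without ES replicate 1 and with fewest reads. With TMM scaling the median of all tested windows moved to 0.04, and 7 windows of the interval passed for N2a against NSC, 5 lower and 2 higher in N2a. Over all tested windows 15.0% passed with TMM, 6.64% lower and 8.41% higher. The 5 lower windows of the interval were all among the 13, and the 2 higher ones were 34860001 to 34870000 (log2 2.42) and 35010001 to 35020000 (log2 1.84).

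Of these 13 windows, 4 adjoined each other at 431 to 471 kb from the viewpoint. The windows starting at 35080001, 35090001, 35100001 and 35110001 had log2 changes of -2.61 ± 0.52, -2.37 ± 0.50, -2.50 ± 0.48 and -1.76 ± 0.51 for N2a over NSC (SE), with adjusted p of 2.3e-05, 6.8e-05, 1.2e-05 and 0.00560 by edgeR. The first 3 stayed called under all 13 other settings in which single windows were followed. Those settings leave out other window sizes and the fit without a filter on low counts. The last of the 4 windows lost its call when windows were scaled by TMM or by DESeq2 size factors. Taken as 1 block, chosen after its values were seen, these 40 kb held 0.627% and 0.836% in N2a, 3.54% and 4.12% in neurons, 3.11% and 4.12% in NSC, and 2.88% and 3.17% in ES cells. Both N2a libraries lay far below the others, which overlapped, and over its 40 kb flanks the block held 0.939 and 0.970 times their mean in N2a, 2.11 and 2.75 times in neurons, 2.79 and 2.52 times in NSC, and 1.67 and 1.72 times in ES libraries. The block thus stood above its flanks in neurons, NSC and ES cells and not in N2a cells. Its windows were picked as lower in N2a than in NSC, so its N2a and NSC values are a description.

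**Figure D4:**
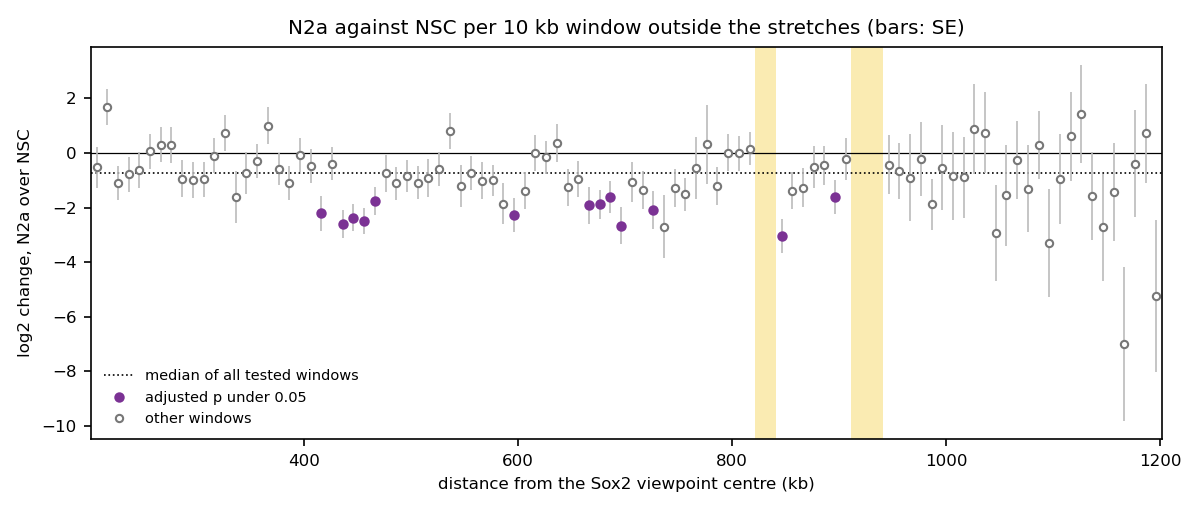
Log2 change of N2a over NSC (y axis; bars, SE) per 10 kb window outside the stretches by distance from the viewpoint centre in kb (x axis), with filled points for an adjusted p under 0.05, a dotted line at the median of all 226 tested windows and shading over the windows that touch the stretches. The 13 filled points are all below the dotted line, and 4 of them lie side by side at 431 to 471 kb.

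Next to stretch 1, the window at 35490001 to 35500000 had the largest fall among the 10 called windows with the smallest p (log2 -3.04 ± 0.62, edgeR adjusted p = 4.5e-05). It held 0.0722% and 0.144% in N2a, 0.453% and 0.617% in neurons, 1.27% and 0.563% in NSC, and 0.300% and 0.385% in ES cells, with both N2a libraries below all others. The window at 35340001 to 35350000, which holds the inner Gm38512 promoter printed above, fell by 2.67 on the log2 scale (SE 0.68, edgeR adjusted p = 0.00181). Its shares were 0.0497% and 0.119% in N2a, 0.243% and 0.268% in neurons, 0.561% and 0.537% in NSC, and 0.388% and 0.206% in ES cells. These 2 windows kept their call in all 13 of those settings.

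The other 4 of the 10 were less stable. They start at 35240001, 35320001, 35060001 and 35370001, with log2 changes of -2.28, -1.88, -2.21 and -2.09 and edgeR adjusted p of 0.00363, 0.00538, 0.00593 and 0.0223. All 4 lost their call under both of those scalings. Without N2a replicate 1 the windows at 35320001, 35060001 and 35370001 were no longer called, and without NSC replicate 1 that at 35240001. With fewest reads that at 35320001 was not called either (edgeR adjusted p = 0.108). The window at 35370001 also lost its call with DESeq2's test, with the replicate number as a block (edgeR adjusted p = 0.0656) and without NSC replicate 2, ES replicate 1 or ES replicate 2, and its NSC libraries disagreed, with 0.0830% and 0.546%.

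Of the 13 windows lower in N2a (13.7% of the 95, against 17.3% of all tested windows), 2 overlapped Gm35425 (11.0 kb long) and 3 overlapped Gm38512 (68.3 kb long). Both are long noncoding RNA genes. Another 1 overlapped the pseudogene Ube2l3-ps1. Of 13 other settings, the Gm35425 windows kept their call in 6 and 9, in order of position. Those of Gm38512 kept it in 4, 13 and 5, and that of Ube2l3-ps1 in 3. Gm38512 held 0.618% and 0.841% in N2a, 1.43% and 1.69% in neurons, 2.01% and 3.004% in NSC, and 1.82% and 1.64% in ES cells. Both N2a libraries lay below the other 6. Gm35425 held 0.0632% and 0.380% in N2a, 0.368% and 1.18% in neurons, 0.862% and 0.877% in NSC, and 0.598% and 0.588% in ES cells, so that N2a replicate 2 lay just above neuron replicate 1. Gm21388 at the near end held most in ES cells, with 0.393% and 1.09% in N2a, 0.437% and 0.310% in neurons, 0.965% and 0.606% in NSC, and 1.25% and 1.11% in ES cells.

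Contacts over Atp11b itself, which starts 1105 kb from the viewpoint, were few. Its stretch inside the interval held 33 and 25 reads in N2a, 186 and 103 in neuron, 24 and 80 in NSC, and 335 and 91 in ES libraries. That was 0.149% and 0.0708% in N2a, 0.492% and 0.359% in neurons, 0.249% and 0.172% in NSC, and 0.445% and 0.247% in ES cells. N2a lay lowest, and NSC cells, which led in both stretches, lay below neurons here. Fragments overlapping the Atp11b promoter held 0 and 0 reads in N2a, 15 and 2 in neuron, 0 and 0 in NSC, and 1 and 0 in ES libraries. Neuron replicate 1 alone held more than 2 reads there.

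Windows outside the stretches whose shares ran most like stretch 1 over the 8 libraries were 35540001 to 35550000 (Pearson r 0.903), 35490001 to 35500000 (r 0.886) and 35100001 to 35110000 (r 0.876). The comparison used log2 of the share plus 0.01 percentage points in 74 windows with at least 3 reads in every library, and all values share each library's denominator. The first 2 lie between the stretches, and the last belongs to the 40 kb block. As a description of the whole profile, the rank correlation over the 100 windows was 0.610 between N2a replicates, 0.851 between neuron, 0.749 between NSC and 0.801 between ES replicates. Between neuron and NSC libraries it averaged 0.797, and between N2a and the other cell types 0.620 to 0.697. These windows share library and fragment density.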

How the data were processed

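Contacts of the Sox2 viewpoint were measured in 8 libraries. The submitters' processing notes name Trim Galore, Bowtie and the build mm10. Not given in the sources used here are the enzyme, the versions, how reads were assigned to fragments and freed of duplicates, and the interaction caller. The deposited tables hold raw counts, whole reads per restriction fragment, and the authors' q value per fragment, a p-value adjusted within each file. Neighbouring fragments often had equal counts, so a read may have been counted in several.

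Fragments were assigned by midpoint. Reads on chromosome 3 beyond 5 kb of the viewpoint centre were the library size, with no scaling factor. Shares over cell types were tested by exact permutation. Wilson intervals and rank correlations were computed with scipy 1.17.1. Reads in 10 kb windows within 1.2 Mb were fitted with edgeR 4.0.16 (robust quasi-likelihood, filterByExpr, minimum count 10; 1 coefficient per cell type; no replicate block) and, as an alternative, DESeq2 1.42.0. The model was tested on simulated data. Other alternatives changed the scaling, window size, flanks, denominator and counting of adjoining reads, or left out each library. The interval, stretches and tests were chosen with earlier results of these data known. Windows are named if past the threshold outside the stretches, up to 10 per contrast by p. For each stretch the 3 fragments with the highest mean share are named, and up to 3 windows most like stretch 1. Library totals ranged from 18150 to 137331 reads. Over windows, correlations of same-numbered libraries' deviations ran from -0.166 to 0.133, which gave no sign of pairing by replicate number. The interval share was nevertheless higher in replicate 2 than in replicate 1 of every cell type. Whether the replicate numbers pair the samples is therefore not settled.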

Additional observations from a re-analysis of the deposited data

How the results depend on the processing

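With the stretches in, the share of the interval passed with reads within 1.2 Mb or beyond 50 kb as denominator and with the fewest reads that could give the counts. Exact permutation p was 0.0952 with all listed reads as denominator, 0.143 without the stretches and 0.114 counting each fragment once, and 0.0286 to 0.0857 leaving out 1 library. For the ratio to the mirror interval it was 0.0762 without the stretches, 0.533 counting each fragment once, and 0.00952 to 0.0857 leaving out 1 library. With fewest reads and the stretches in, the exact permutation p of that ratio was 0.00952. With the replicate number as a block the exact permutation p was 0.0417, the smallest that block allows, for the share and 0.125 for the ratio; the block left the counts of called windows at 12 over all cell types and 13 (1 of them higher) for N2a against NSC. For stretch 1 over its flanks, NSC over ES was 2.04, with 3.04 against 50 kb flanks, 1.23 counting each fragment once and 1.49 to 3.23 leaving out 1 library. N2a over NSC was 0.322, with 0.277 against 50 kb flanks, 0.365 with fewest reads, 0.448 without the short-fragment run (chosen after seeing the data), 0.308 to 0.336 leaving out 1 library, and 1.196, the other direction, counting each fragment once. Nearly all fragments of stretch 1 were listed in every library, so that count cannot show a difference by reads there. Counting each fragment once also gave 1.04 against 1.66 for stretch 2 NSC over ES and 0.792 against 0.381 for N2a over NSC. Called windows of the interval over all cell types numbered 7 with TMM and 7 with fewest reads, against 12, and 5 to 19 leaving out 1 library: N2a replicate 1 left out gave 7, ES replicates 1 and 2 gave 5 and 6, neuron replicate 2 gave 8 and NSC replicate 2 gave 19. For NSC against ES, against 0, TMM, DESeq2 size factors and 20 kb windows gave 1 each, and leaving out 1 library 0 to 2. For neuron against ES, 20 kb windows gave 1 and leaving out 1 library 0 to 1. For N2a against NSC, against 13, TMM gave 7 (5 lower, 2 higher), DESeq2 size factors 9 (5 lower, 4 higher), and leaving out 1 library 9 to 17. The cause of these changes was not tested. Low depth limits N2a and NSC replicate 1 most, at 22155 and 9634 cis reads.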
